A study of Mus musculus with 14 samples.

Results

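Ring1b, the catalytic core of Polycomb repressive complex 1 (PRC1), was mapped at 1808 sites in mouse cells carrying the K27M form of histone H3.3, out of 100123 peaks in the 12 libraries analysed. Each site was set against the H3K27me3 peaks of the same cells, of which replicate 1 had 2351 and replicate 2 had 17980. A site was called marked where at least 1 bp of it lay under an H3K27me3 peak. Of the 1808 sites, 936 were marked in both replicates (51.8%, exact 95% interval 49.4 to 54.1%), 151 in replicate 2 only (8.35%, 7.12 to 9.72%) and 721 in neither (39.9%, 37.6 to 42.2%). Marking in replicate 1 only was found at 0 sites, a count that allows up to 0.166%, so the class marked in both was set by the shorter replicate 1 list.

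The cells are named PDGF neural stem cells in the labels and mouse DIPG cells (a model of diffuse intrinsic pontine glioma) in the series' design text. They expressed K27M or wild-type H3.3 (H3WT), and no label says how many clones or cultures were used or how the transgenes were driven. All were grown in neural stem cell medium with epidermal and basic fibroblast growth factors. DMSO, the solvent, or 3 µM EPZ6438 (EPZ), an inhibitor of the PRC2 enzyme Ezh2, was given for 12 days. Ring1b, precipitated with an in-house antibody, and Suz12, a core subunit of PRC2, had 1 library per genotype in DMSO, and H3K27me3 had 2 libraries in each of the K27M and H3WT groups with DMSO and with EPZ. Nothing says that the replicates were separate cultures, so their spread may be technical.

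PRC2 trimethylates lysine 27 of histone H3 (H3K27me3), and the K27M histone, which lacks that lysine, interferes with this activity. PRC1, of which Ring1b is the ubiquitin ligase, comes in canonical forms that hold a Cbx subunit able to bind H3K27me3, and in variant forms built around Rybp or Yaf2 that reach chromatin without it. Variant complexes include one with E2f6, Mga and Max, which binds E-box and E2F-type sequences at germline and cell cycle genes, and one with Kdm2b, which binds unmethylated CpG-rich DNA.

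The libraries differed in ways that touch these counts. The replicate 2 H3K27me3 list covered 65.5 Mb, with 36.4% of that length on X, and the replicate 1 list covered 13.5 Mb, with 3.54% on X. Ring1b covered 7.54 Mb in K27M and 5.17 Mb in H3WT cells (1754 sites), and 31 K27M sites lay on X. Read depth is unknown for every library, the lists hold no peak heights, and intervals given for shares cover the counting of sites, domains or genes only. The lists hold no RNA, so the cell type could be checked only by occupancy. Among 10 neural stem and glial markers Ring1b lay at starts that included those of Nes, Hes1 and Pdgfra, among 5 neuronal markers at Gad1, and at 0 of 6 mesenchymal, endothelial and microglial markers.

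The sequences below are single examples and do not stand for all promoters of the 2 kinds of Ring1b site. Each is the RefSeq stretch from 250 bases before to 50 after a gene start (GRCm38.p6), printed on the gene's strand with every CpG in capitals. Hoxa10 (chr6:52234890-52235189, minus strand) and Evx2 (chr2:74659508-74659807, minus strand) encode homeobox factors and lay inside the widest marked sites. Inppl1 (chr7:101837775-101838074, minus strand), an inositol phosphatase gene, had one of the widest unmarked sites. For Hoxa10, Evx2 and Stag3, and by fewer bases for Inppl1 and E2f6, the start shown lies within the annotated gene. E2f6 (chr12:16810715-16811014, plus strand), which encodes a subunit of variant PRC1, and Stag3 (chr5:138280259-138280558, plus strand), a meiotic cohesin gene, were unmarked and were chosen after their values were seen. Insl3 (chr8:71689002-71689301, plus strand), a hormone gene of Leydig cells, lay in one of the widest H3K27me3 domains without Ring1b.
Hoxa10: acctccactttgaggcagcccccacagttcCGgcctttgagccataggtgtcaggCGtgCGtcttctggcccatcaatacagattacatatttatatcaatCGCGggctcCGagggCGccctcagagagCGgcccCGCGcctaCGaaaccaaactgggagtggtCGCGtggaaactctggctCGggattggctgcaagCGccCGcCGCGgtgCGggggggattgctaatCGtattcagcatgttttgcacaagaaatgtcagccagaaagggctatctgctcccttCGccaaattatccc
Evx2: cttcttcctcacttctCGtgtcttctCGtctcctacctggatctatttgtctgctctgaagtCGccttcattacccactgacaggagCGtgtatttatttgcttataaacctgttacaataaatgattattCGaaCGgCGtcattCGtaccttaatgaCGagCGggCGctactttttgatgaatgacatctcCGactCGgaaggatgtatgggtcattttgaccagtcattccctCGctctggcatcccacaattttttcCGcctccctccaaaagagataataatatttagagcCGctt
Inppl1: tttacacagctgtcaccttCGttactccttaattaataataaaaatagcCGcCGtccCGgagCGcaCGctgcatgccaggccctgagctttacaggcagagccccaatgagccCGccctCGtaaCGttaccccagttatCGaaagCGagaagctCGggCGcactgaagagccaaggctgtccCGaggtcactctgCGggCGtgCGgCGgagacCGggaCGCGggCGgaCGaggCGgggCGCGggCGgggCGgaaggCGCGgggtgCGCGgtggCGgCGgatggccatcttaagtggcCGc
E2f6: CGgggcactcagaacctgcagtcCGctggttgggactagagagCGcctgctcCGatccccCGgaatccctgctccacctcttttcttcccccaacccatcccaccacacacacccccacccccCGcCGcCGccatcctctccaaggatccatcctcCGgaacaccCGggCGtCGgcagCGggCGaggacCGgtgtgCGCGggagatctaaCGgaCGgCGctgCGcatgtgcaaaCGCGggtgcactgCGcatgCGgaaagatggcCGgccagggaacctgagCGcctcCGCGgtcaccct
Stag3: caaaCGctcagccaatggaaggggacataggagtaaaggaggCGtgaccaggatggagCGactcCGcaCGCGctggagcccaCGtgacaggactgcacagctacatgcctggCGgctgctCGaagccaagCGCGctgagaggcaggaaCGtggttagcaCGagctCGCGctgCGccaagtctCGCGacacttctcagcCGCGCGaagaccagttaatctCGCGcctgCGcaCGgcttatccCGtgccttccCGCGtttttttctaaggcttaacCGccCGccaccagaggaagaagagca
Insl3: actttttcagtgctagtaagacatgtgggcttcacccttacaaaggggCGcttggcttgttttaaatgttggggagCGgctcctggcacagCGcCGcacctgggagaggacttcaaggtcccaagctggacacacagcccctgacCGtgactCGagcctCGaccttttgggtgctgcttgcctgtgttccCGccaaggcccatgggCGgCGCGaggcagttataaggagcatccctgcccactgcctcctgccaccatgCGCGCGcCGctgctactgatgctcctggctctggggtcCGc

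Over the 300 bases, CpG was counted 21 times in Hoxa10, 16 in Evx2, 35 in Inppl1, 29 in E2f6, 30 in Stag3 and 16 in Insl3. Promoters of a class varied. Those of Hmga2, which had the widest unmarked site, and Tle3, whose unmarked site was also wider than that of Inppl1, held 12 and 21. They are not printed here. Of the 1808 sites, 741 contained at least 1 whole promoter window. The median promoter inside an unmarked site had 31 CpG (quartiles 23 and 39.25, 444 promoters), against 21.5 (13 and 30.75, 306 promoters) inside a site marked in both replicates. Promoters under replicate 2 marking only had a median of 28 (47 promoters), those with the mark in both replicates but no Ring1b 21 (201 promoters), and all 17274 coding genes with a promoter sequence 13. Fewer than 5 CpG were present in 0 of the 444 unmarked promoters, in 17 of the 306 marked ones and in 29.0% of all promoters. Unmarked Ring1b promoters thus held more CpG than marked ones, and both held more than the genome-wide median. Neighbouring genes can share a site, so promoters are not independent.

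Motifs were searched on both strands of these windows and are letter matches, not measured binding. The E2F-type word GCGGGAA was present in 72 of 444 unmarked promoters (16.2%, exact 95% interval 12.9 to 19.98%), in 21 of 306 marked ones (6.86%, 4.30 to 10.3%) and in 6.06% of all promoters. Of the genes named in this report, Stag3, Hmga2, Msh5 and Smc1b held it in the unmarked class. Zpbp2 held it with marked Ring1b, and Insl3 and Olig2 held it without Ring1b. The germline genes Tdrkh and Zcwpw1 were among the unmarked ones that lacked it. The E-box CACGTG was in 16.7% (13.3 to 20.5%), 10.5% (7.26 to 14.4%) and 7.84%. The word GCCATNTT, the core of the YY1 motif, was in 6.31%, 1.31% and 6.75%, so the unmarked promoters were near the share of all promoters and the marked ones were below it. Inppl1 and E2f6 held this word. The T-box word AGGTGTGA was in 0.450%, 0.980% and 1.19%. GCGGGAA and CACGTG contain CpG and were more frequent in CpG-rich promoters generally. Among promoters with at least 20 CpG, GCGGGAA was in 17.2% of the unmarked (66 of 384), 10.7% of the marked (20 of 187) and 11.4% of all 6802, with intervals that overlapped (13.5 to 21.3% and 6.66 to 16.0%). For CACGTG those shares were 18.2%, 14.4% and 11.8%, and the intervals again overlapped (14.5 to 22.5% and 9.74 to 20.3%).

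Ring1b sites with the mark were broad and those without it were narrow. The median width was 3.17 kb for sites marked in both replicates (95% interval 2.86 to 3.53 kb, longest 117.283 kb), 1.5 kb for replicate 2 only (1.40 to 1.67 kb) and 1.42 kb for neither (1.39 to 1.47 kb, longest 3.754 kb). The narrowest deposited peak was 1001 bp, so unmarked sites were close to the shortest width that the lists contain. Of the 180 sites over 10 kb, 180 were marked in both replicates, as were 160 of 162 between 5 and 10 kb and 145 of 154 between 3 and 5 kb. Among the 651 sites of up to 1.5 kb the order turned, with 404 unmarked (62.1%) and 172 marked in both (26.4%). The marked sites held 82.5% of the length under Ring1b and the unmarked ones 14.1%. A wider site has more room to touch a peak, but with at least 50% of a site required to lie under the mark 879 sites were still marked in both and 752 in neither. Marking was usually complete, since 719 of the 936 marked sites lay wholly under the replicate 1 peaks (76.8%) and 889 under those of replicate 2 (94.98%).

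**Figure D1:**
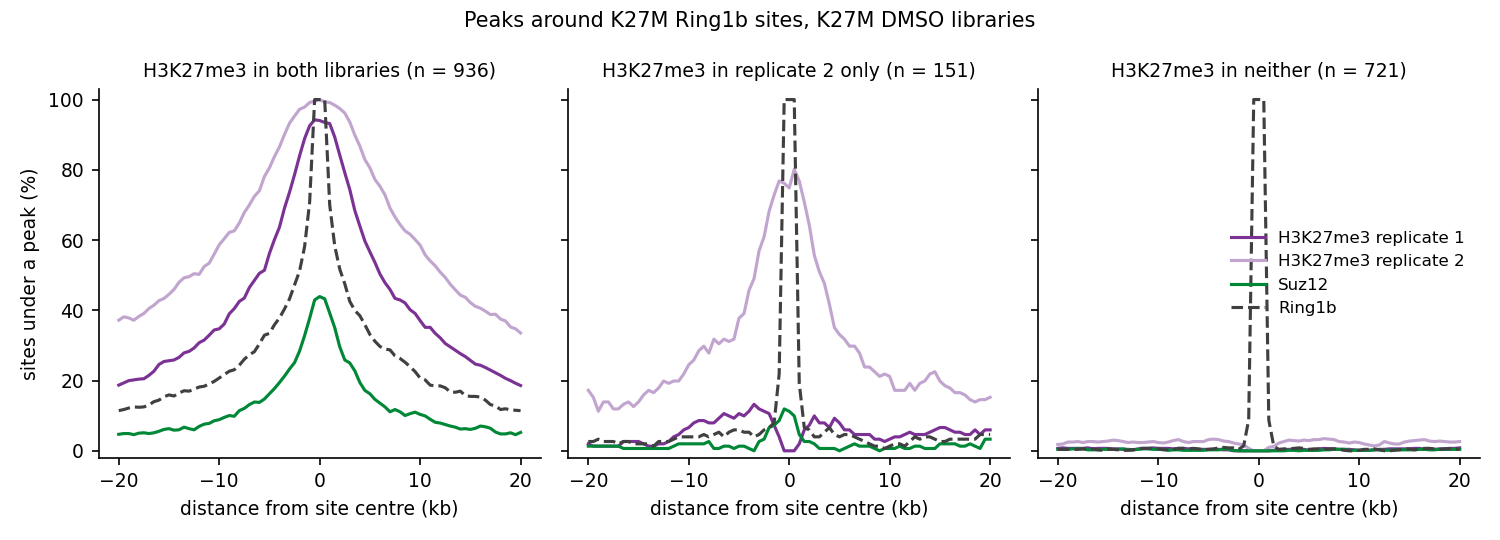
Share of K27M Ring1b sites (y axis, percent) under a peak at each distance from the site centre (x axis, kb), for the 936 sites marked in both replicates, the 151 marked in replicate 2 only and the 721 marked in neither. Lines are the 2 H3K27me3 libraries, Suz12 and Ring1b of K27M DMSO cells. At the centre of the first class 94.0% and 99.9% of sites were under H3K27me3 and 43.9% under Suz12, while the third class stayed near 0 on both sides.

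Unmarked sites stood away from the mark altogether. Their median distance to the nearest H3K27me3 peak of either replicate was 101.7 kb, and 499 of 721 (69.2%) were more than 50 kb away. A further 152 lay between 5 and 50 kb from a peak and 70 within 5 kb. The profile around the site centres shows the difference in shape: at 10 kb from the centre on the side of lower coordinates, 34.7% and 58.7% of the marked sites were still under the mark in replicates 1 and 2, against 0.693% and 2.36% of the unmarked sites.

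Position relative to genes separated the classes as well. At a gene start, taken as a window of 1 kb to either side, lay 599 of 721 unmarked sites (83.1%, exact 95% interval 80.1 to 85.7%), 469 of 936 marked in both replicates (50.1%, 46.9 to 53.4%) and 81 of 151 marked in replicate 2 only (53.6%, 45.4 to 61.8%), where the share of all 1808 sites was 63.6%. The median distance from site centre to the nearest start was 0.255 kb for unmarked and 3.94 kb for marked sites. Outside genes lay 258 marked sites (27.6%) and 51 unmarked ones (7.07%). Wide sites reach a start more easily, and the contrast was larger among sites of up to 2 kb, where 546 of 660 unmarked (82.7%) and 100 of 307 marked sites (32.6%) lay at a start. That restriction was chosen after the data had been seen.

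**Figure D2:**
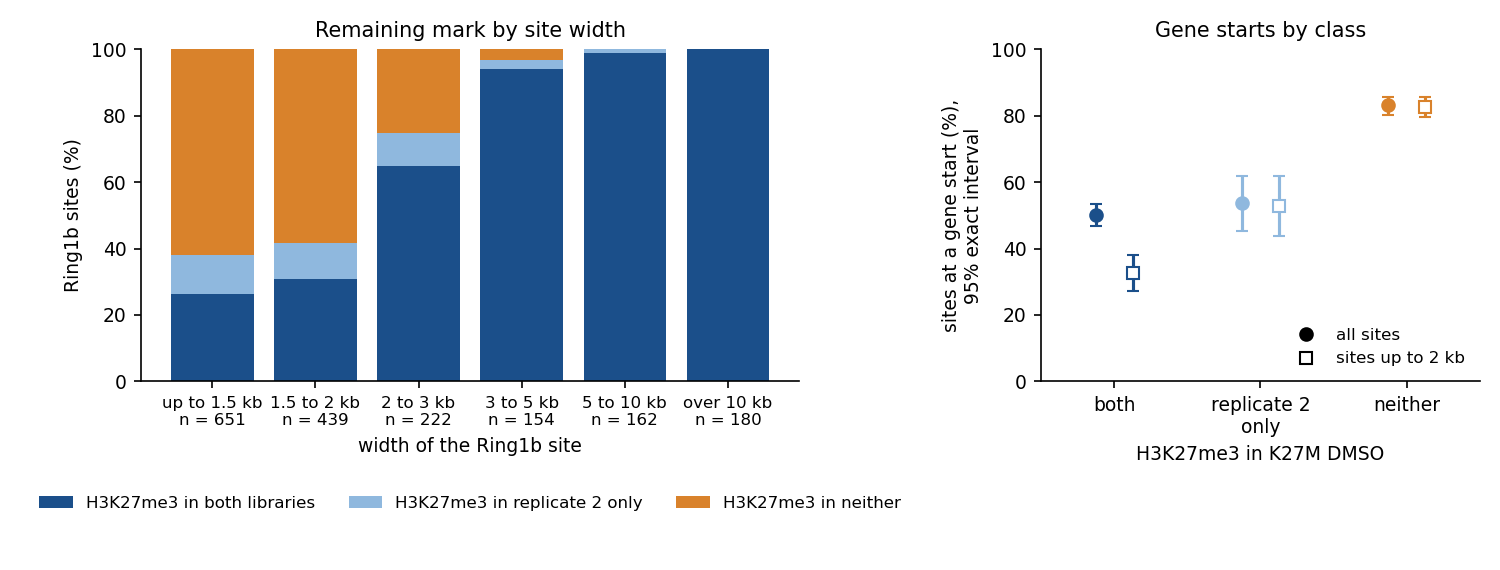
Left, share of Ring1b sites (y axis, percent) in each class of H3K27me3 by width of the site (x axis, number of sites under each bar); the unmarked share goes from 62.1% of 651 narrow sites to 0 of 180 sites over 10 kb. Right, share of sites at a gene start (y axis, percent) for each class (x axis), with exact 95% intervals; filled circles are all sites and open squares sites of up to 2 kb, where marked sites stand at 32.6% and unmarked at 82.7%.

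Suz12 followed the mark. It overlapped 512 of the 936 sites marked in both replicates (54.7%, exact 95% interval 51.4 to 57.9%), 23 of 151 marked in replicate 2 only (15.2%) and 0 of 721 unmarked sites, which allows a share of up to 0.416%, where the share of all sites was 29.6%. Suz12 peaks outside the mark were rare anywhere: of 1252 in K27M cells, 1163 lay under the mark in both replicates, 84 in replicate 2 only and 5 in neither. The Suz12 list was also short, and the share of sites with Suz12 was 92.2% among those over 10 kb and 9.06% among those of up to 1.5 kb. Among marked sites of up to 2 kb it was 31.6% (97 of 307). In H3WT cells Suz12 overlapped 325 marked and 0 unmarked sites.

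The class of a site in K27M cells matched its state in H3WT cells. H3K27me3 was present in both H3WT libraries at 915 of the 936 sites marked in both K27M replicates (97.8%) and at 9 of the 721 unmarked ones (1.25%, exact 95% interval 0.572 to 2.36%), where the share of all sites was 56.1%. Neither H3WT library had a peak at 672 unmarked sites (93.2%, 91.1 to 94.9%), so few of them were places where the mark had been present in H3WT cells. Over the 1808 sites the marked share was 51.8% and 60.1% in the K27M libraries of replicates 1 and 2 and 56.25% and 62.1% in the H3WT libraries. The means were 55.9% ± 5.91 and 59.2% ± 4.15 (SD, n = 2), and the difference of -3.24 percentage points was within the spread between replicates (two-sided exact permutation test, p = 0.667, where 0.333 is the smallest p that 2 libraries against 2 allow). In both replicate numbers K27M was the lower library.

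EPZ left H3K27me3 peaks at a small part of the marked sites and at no unmarked one. The marked share of the 1808 sites was 6.64% and 10.2% in the K27M EPZ libraries, a mean of 8.41% ± 2.5 (SD, n = 2), which was 47.5 points below DMSO. Both EPZ libraries lay below both DMSO libraries, and the exact permutation p of 0.333 is the smallest possible. Peaks in both K27M EPZ libraries were found at 119 sites of the class marked in both replicates and at 0 of the other 2 classes, where the share of all sites was 6.58%. Of the unmarked sites, 0 of 721 had a peak in any of the 4 EPZ libraries, K27M or H3WT, which allows up to 0.416%. The H3WT EPZ lists were short too, with 278 and 271 peaks. Unmarked sites were chosen for lacking the mark in K27M DMSO, and 672 of them also lacked it in both H3WT DMSO libraries. Their 0 under EPZ was thus largely set in advance and is not a separate result.

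Ring1b itself was found again in H3WT cells at most sites of every class. The H3WT Ring1b list overlapped 612 of 936 marked sites (65.4%, exact 95% interval 62.2 to 68.4%), 96 of 151 marked in replicate 2 only (63.6%) and 418 of 721 unmarked ones (58.0%, 54.3 to 61.6%), where the share of all sites was 62.3%. Among sites of up to 2 kb the order was the reverse, with 93 of 307 marked (30.3%) and 360 of 660 unmarked sites (54.5%) found again. Where a site was found again, the K27M peak was wider than the H3WT peaks it touched at 542 of 612 marked sites (88.6%), with medians of 5.40 and 3.40 kb. At unmarked sites the medians were 1.58 and 1.5 kb, and 250 of 418 (59.8%) were wider in K27M. With 1 Ring1b library per genotype, a change of genotype and a difference between libraries cannot be told apart.

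**Figure D3:**
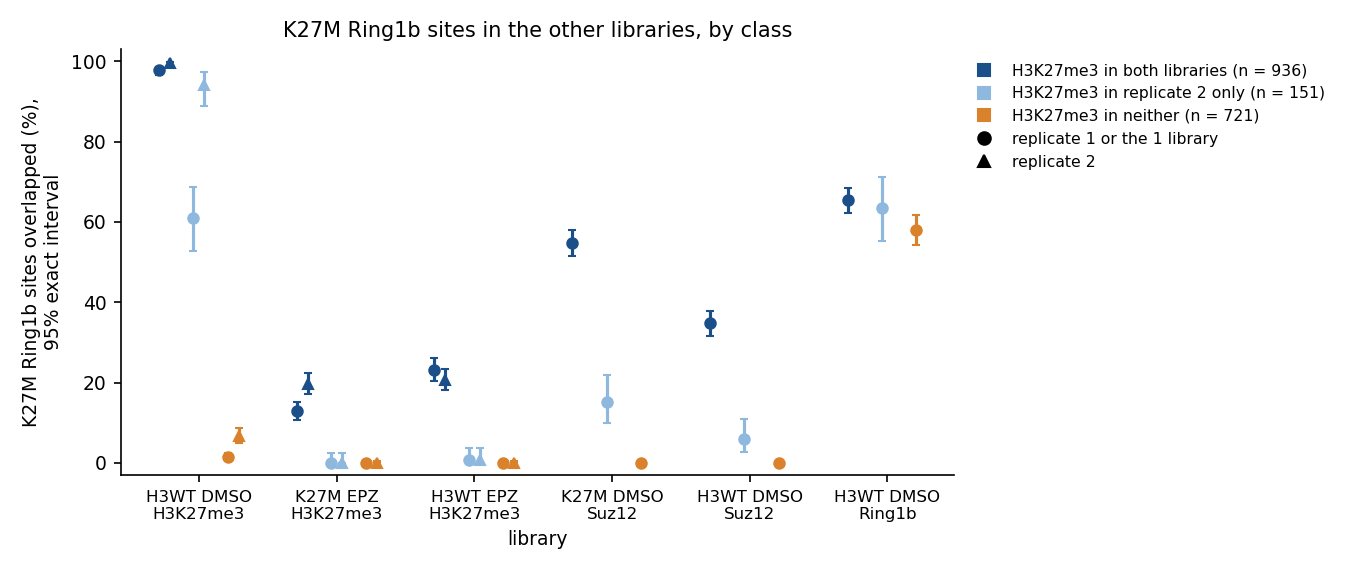
Share of K27M Ring1b sites (y axis, percent, exact 95% intervals) overlapped by peaks of the other libraries (x axis), by class of H3K27me3 in K27M DMSO. Circles are replicate 1 or the 1 library and triangles replicate 2; unmarked sites stand at 1.39% and 6.66% for H3WT H3K27me3 and at 0 for Suz12 and EPZ, but at 58.0% for H3WT Ring1b, near the 65.4% of marked sites.

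The 324 marked sites that the H3WT Ring1b list lacked were narrow (median 1.67 kb), and 75 lay at a gene start (23.1%, exact 95% interval 18.7 to 28.1%), against 394 of the 612 found again (64.4%, 60.4 to 68.2%). Of these 324 sites, 148 lay in a replicate 1 domain that held an H3WT Ring1b peak elsewhere. The 303 unmarked sites that H3WT lacked had a median width of 1.26 kb and were at a gene start as often as those found again (81.8% of 303 and 84.0% of 418, with overlapping intervals). H3WT Ring1b sites divided in the same manner by the H3WT mark: 548 of 1754 were unmarked in both libraries (31.2%), 458 of these lay at a gene start (83.6%), the longest was 3.128 kb, and 0 had H3WT Suz12, which allows up to 0.547%. The unmarked class of narrow promoter sites was thus present in both genotypes.

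Chromosome 10 held more unmarked sites than its share of genes. It carried 91 of the 721 (12.6%, exact 95% interval 10.3 to 15.3%), 41 of the 936 marked sites (4.38%, 3.16 to 5.90%) and 4.63% of coding genes. The excess was in sites that H3WT lacked, 74 of 303 of which were on chromosome 10 (24.4%, 19.7 to 29.7%), against 17 of the 418 found again (4.07%). Of the 74, 21 lay between 80 and 85 Mb. Of all 91, 23 lay between 80 and 85 Mb, 12 between 120 and 125 Mb and 11 between 125 and 130 Mb. The site at Hmga2, the widest unmarked one, is among the 12. In K27M Suz12 peaks the chromosome held 5.83% and in H3WT 2.22%. Without chromosome 10, an alternative added after seeing the data, 630 unmarked sites were left and 63.7% of them were found again in H3WT. Chromosome 1 departed the other way, with 9 of the 721 unmarked sites (1.25%) and 0 of the 303 that H3WT lacked. It held 4.38% of marked sites and 5.57% of coding genes. What sets chromosomes 10 and 1 apart in this library was not tested.

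Turning to the residual domains, Ring1b lay in a minority of the H3K27me3 peaks, and these held a larger share of the covered length than of the number of peaks. In replicate 1, 718 of 2351 domains held a Ring1b site (30.5%, exact 95% interval 28.7 to 32.4%), and these held 67.5% of the 13.5 Mb covered. In replicate 2, 774 of 17980 did (4.30%, 4.01 to 4.61%), with 22.6% of the 65.5 Mb, or 755 of 9368 (8.06%) and 34.6% of the length with X left out. A gene start lay in 554 of the 774 (71.6%) and in 1641 of the other 17206 (9.54%), where the share of all replicate 2 domains was 12.2%. Suz12 overlapped 467 (60.3%) and 248 (1.44%), where the share of all was 3.98%. Of the replicate 2 domains that no replicate 1 domain overlapped, 118 of 16385 had Ring1b, and 72 of these 118 lay at a gene start. The replicate 1 domains were nearly all shared, with 2349 of 2351 overlapping replicate 2, and are described from here on.

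Domains with Ring1b were wide, lay at gene starts and carried Suz12. Their median width was 8.56 kb (95% interval 7.61 to 9.35 kb), against 1.95 kb (1.89 to 2.0 kb) for the 1633 without. A gene start lay in 461 of the 718 (64.2%) and in 428 of the 1633 (26.2%), where the share of all domains was 37.8%. Suz12 overlapped 459 (63.9%) and 228 (14.0%), where the share of all was 29.2%. Outside genes lay 147 (20.5%) and 713 (43.7%), and 14 and 184 were on X. The mark in both K27M EPZ libraries was found at 106 (14.8%) and 8 (0.490%). Both kinds were present in H3WT: 704 (98.1%) and 1540 (94.3%) were overlapped in both H3WT H3K27me3 libraries. H3WT Ring1b overlapped 548 of the domains with K27M Ring1b (76.3%) and 45 of those without (2.76%).

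Occupancy rose with width. Replicate 1 domains were put in order of width and divided into 5 groups of 470 or 471, in which occupancy was 5.52%, 8.72%, 16.4%, 35.7% and 86.4%. A wide domain has more room for a Ring1b site, so gene starts and Suz12 were compared within these groups. In the widest group (7.11 to 167.186 kb), 288 of 406 domains with Ring1b and 20 of 64 without lay at a start (70.9% and 31.2%), and 307 and 27 had Suz12 (75.6% and 42.2%). In the narrowest group, 14 of 26 and 62 of 445 lay at a start. The share at a start was the higher one with Ring1b in each of the 5 groups, with the smallest gap in the second widest (56.5% and 41.4%).

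**Figure D4:**
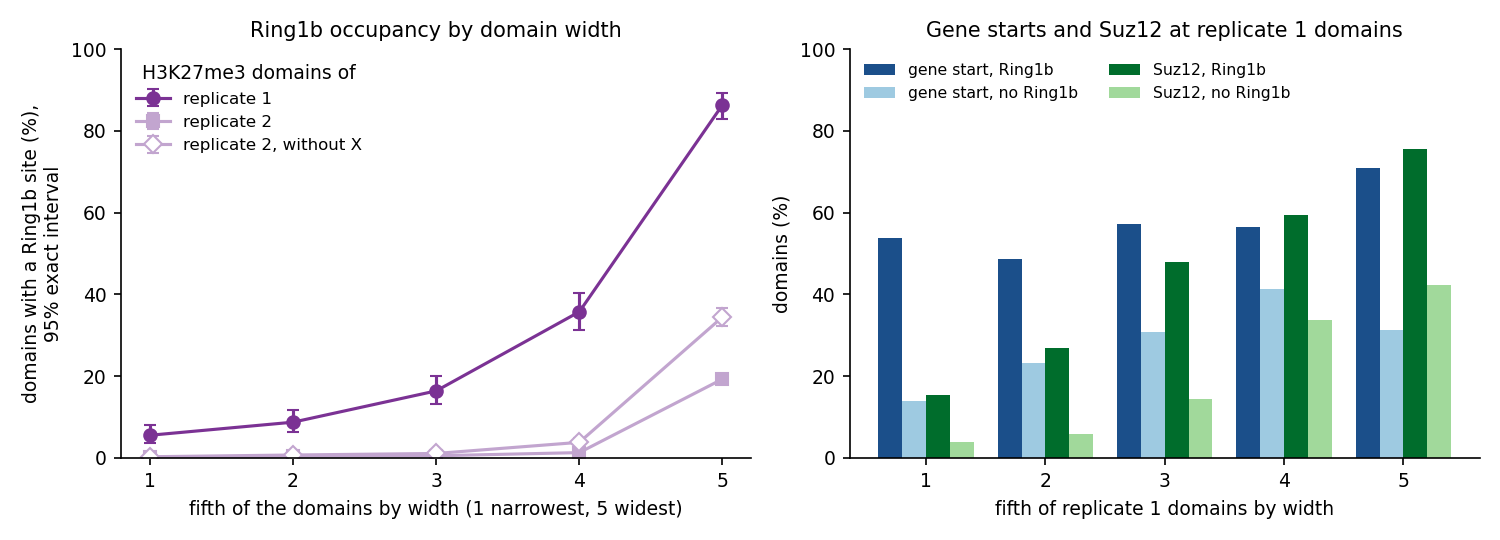
Left, share of H3K27me3 domains of K27M DMSO cells with a Ring1b site (y axis, percent, exact 95% intervals) by group of domain width (x axis), for replicate 1, replicate 2 and replicate 2 without X; replicate 1 goes from 5.52% to 86.4%. Right, share of replicate 1 domains (y axis, percent) at a gene start or with Suz12, split by Ring1b, in each width group; in the widest, starts are at 70.9% with Ring1b and 31.2% without.

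Many occupied domains held a single Ring1b site. Of the 718 occupied domains, 545 held 1 site and 173 held 2 or more, and the latter contained 434 of the 936 marked sites, so marked sites are not independent of each other. Of the 545 single sites, 319 had their centre in the central one of 3 equal stretches of the domain (58.5%, exact 95% interval 54.3 to 62.7%), as did 254 of 342 in domains of at least 5 kb (74.3%, 69.3 to 78.8%). A site that fills much of a domain is centred in it by its width alone, so no preference for the centre is read from these shares. The median occupied domain was 58.5% under Ring1b. The most sites in 1 domain were 7, found in the 75.383 kb domain (chr12:33914134-33989516) over Twist1, a factor of mesoderm and neural crest, of which 68.5% was under Ring1b. A domain of 40.126 kb on chromosome 9 (chr9:63411125-63451250), with no coding gene start, also held 7. Domains with 6 sites lay over Hoxb5, over Tfap2a, a neural crest factor, and over Tbr1, a T-box factor of cortical neurons that was named after its value was seen.

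In replicate 1 the widest domains without Ring1b were shorter than the widest with it, while replicate 2 had domains without Ring1b of up to 105.82 kb, or 73.317 kb with X left out. The longest in replicate 1, with no coding gene start, spanned 24.163 kb (chr7:96560496-96584658) and had Suz12. The widest at gene starts were at Tec, a kinase of blood cells (11.96 kb), Acoxl, an acyl-CoA oxidase-like gene (10.747 kb), Insl3 (10.739 kb), Mlph, which encodes the melanosome adaptor melanophilin (10.277 kb), Gfy (9.868 kb), Erfl (9.567 kb), Ntf5, a neurotrophin (9.195 kb), and Cyp26a1, which degrades retinoic acid (9.012 kb). Within 10 kb to either side of its start, Cyp26a1 had 13.3 and 13.6 kb of H3K27me3 in H3WT replicates 1 and 2. The K27M libraries had 9.01 and 13.2 kb there, and Ring1b and Suz12 were listed at 0 in both genotypes. At Insl3 the mark covered 12.1 and 13.5 kb of the H3WT window and 10.7 and 12.5 kb of the K27M one, Suz12 covered 3.22 and 5.86 kb, and Ring1b was listed at 0 in both. So some of these domains held Suz12 peaks and others did not.

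At the level of genes, Ring1b lay at the start of 1230 of 21631 coding genes (5.69%). Of these genes, 493 had the mark in both replicates (2.28% of all coding genes), 91 in replicate 2 only and 646 in neither (2.99% of all). With or without Ring1b, the mark was at 924 starts in both replicates (4.27%), at 1247 in replicate 2 only (5.76%) and in neither replicate at 90.0% of all starts. The mark in both replicates without Ring1b was at 431 genes. Suz12 lay at the starts of 377 of the 493, 143 of the 431 and 1 of the 646, where the share of all genes was 2.64%. Below, the value of a named gene is the length under peaks within 10 kb to either side of the centre of its Ring1b site, which cannot exceed 20 kb. Where a gene has no Ring1b the window is centred on its start.

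Lists of developmental transcription factors and of neuronal genes held many of the genes with marked Ring1b. Of 39 Hox genes, whose products pattern the head-to-tail axis, 38 had Ring1b and the mark in both replicates, and Hoxb1, named after its value was seen, had the mark alone. Of 84 other homeobox and paired-box factors 65 had Ring1b and the mark in both, and 0 had Ring1b unmarked. Of 41 T-box, Gata, forkhead and Sox lineage factors 31 had both, and of 34 proneural and neuronal genes 15 did. The background for these counts is the 2.28% above. Genes of 1 cluster share sites: Hoxa10 and the other Hoxa genes lay under 1 Ring1b site of 117.283 kb (chr6:52160873-52278155), and Hoxd11 and Evx2 under 1 of 72.164 kb (chr2:74644870-74717033). At the Hoxa site H3K27me3 filled all 20 kb of the window in each of the 4 DMSO libraries. Under EPZ the H3WT libraries had 12.6 and 10.3 kb there and the K27M libraries 7.24 and 16.2 kb, so the genotypes overlapped.

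Several of the widest marked sites kept peaks with EPZ. Hoxc9 had a site of 85.067 kb inside the widest replicate 1 domain (167.186 kb, 5 Ring1b sites), with 20 kb of the mark in both H3WT EPZ libraries, and 17.0 and 20 kb in those of K27M. Hand2, a heart and limb factor, had a site of 51.143 kb, with 15.5 and 19.9 kb of the mark under EPZ in K27M. Zdbf2, an imprinted gene with a site of 38.268 kb, had 20 kb of the mark in all 8 libraries and of Ring1b in both. The lineage factors Gata4 (35.346 kb) and Foxa2 (33.5 kb), which act in heart and endoderm, had 14.0 and 19.96 kb and 14.1 and 17.98 kb of it under EPZ in K27M. Among homeobox genes, Otx2, a forebrain factor (31.528 kb), had 9.14 and 12.7 kb, Alx1 (37.049 kb) 2.29 and 6.36 kb, and Pax9 (33.851 kb) 0 and 6.93 kb. In DMSO the windows of Gata4, Foxa2, Otx2, Alx1 and Pax9 were filled by the mark in both K27M libraries and by K27M Ring1b.

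Other marked sites had no peak with EPZ. Neurog2, a proneural factor, had a Ring1b site of 22.988 kb, with the mark over 17.9 and 20 kb in the H3WT libraries, 20 kb in both K27M libraries and 0 in all 4 EPZ libraries. Ring1b covered 9.25 kb of its H3WT window and all 20 kb of the K27M one. Cdkn2a, which encodes the cell cycle inhibitors p16 and Arf, had a site of 28.857 kb (chr4:89267121-89295977), and its window was under Ring1b over 11.0 kb for H3WT and 20 kb for K27M. K27M Suz12 covered 9.81 kb there and H3WT Suz12 was listed at 0. Mab21l2, a gene of eye development, had Ring1b over 3.52 kb in the H3WT library and over 20 kb in that of K27M under a site of 55.019 kb, with the mark over 1.09 and 20 kb in the H3WT libraries. Those 2 H3WT libraries differed by nearly the whole window, while the K27M libraries both had 20 kb. The imprinted genes Magel2 and Mkrn3 had sites of 26.902 and 12.171 kb, and Igf2 one of 8.125 kb. These 3 of 26 imprinted genes had Ring1b and the mark at a start, where 2.28% of all genes did, and Igf2 alone of them had the mark under EPZ (6.90 and 7.78 kb in K27M).

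Unmarked sites had other genes. The widest lay at Hmga2, an architectural factor of fetal and tumour cells (3.754 kb, chr10:120474303-120478056), where the gene spans chr10:120361268-120476469. This site lay between 120 and 125 Mb of chromosome 10, where 12 unmarked sites were found, against a median of 2 per 5 Mb stretch with any. At its centre H3WT Ring1b was listed at 0, and the only H3K27me3 within 10 kb was 2.13 kb in K27M replicate 2. Tle3, a Groucho corepressor, followed with 3.381 kb, but its window held marked flanks of 6.16 and 7.33 kb in K27M. At Inppl1 (3.234 kb), Zfp36l2, an RNA-decay factor (3.198 kb), the immediate-early gene Ier2 (3.126 kb), Anp32b (2.830 kb) and Actb, cytoplasmic actin (2.749 kb), no H3K27me3 lay within 10 kb in any of the 8 H3K27me3 libraries. H3WT Ring1b was present at each of these 5, over 3.13, 1.76, 3.11, 2.10 and 1.99 kb. Zic2, a neural factor, had 2.707 kb of unmarked Ring1b, while Zic4, on another chromosome, lay in a marked domain of 70.239 kb. Zic2 and Foxc1 were the 2 of 41 T-box, Gata, forkhead and Sox lineage factors with Ring1b and no mark.

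Polycomb genes were themselves among both kinds. Of 26 PRC1 genes 9 had Ring1b at a start, where 5.69% of all genes did: 3 were marked in both replicates, 1 in replicate 2 only and 5 in neither. The marked ones were Pcgf1, with a site of 16.206 kb, Cbx2, a chromobox subunit of canonical PRC1 (3.164 kb), and Pcgf2, and Bmi1 (Pcgf4) had a site of 1.130 kb marked in replicate 2 only. The unmarked ones included Mga (1.989 kb), E2f6 (1.986 kb), Pcgf5 (1.662 kb) and Rybp, which encode parts of variant PRC1. Pcgf2 and Rybp were named after their values were seen. Rnf2, which encodes Ring1b, had 0 in all 12 libraries. Of 17 PRC2 and H3K27 enzyme genes, Epop was marked, and Ezh2, the catalytic subunit (1.430 kb), Aebp2 (1.504 kb) and Jarid2 (1.304 kb) had unmarked Ring1b, Ezh2 also in H3WT (1.22 kb) and the other 2 in K27M alone.

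Germline genes and neural progenitor genes had Ring1b of both kinds, in small numbers. Of 39 germline genes 8 had Ring1b, 5 of them unmarked, where 5.69% of all genes had Ring1b and 2.99% had it unmarked. The unmarked ones were the meiotic cohesin genes Stag3 (2.074 kb) and Smc1b (1.401 kb), the histone reader Zcwpw1 (1.902 kb), the piRNA factor Tdrkh (1.600 kb) and the recombination gene Msh5 (1.473 kb), and H3WT Ring1b lay over 1.05 to 2.04 kb at each. The marked ones were Sycp2, Cpeb1 and Zpbp2. Of 30 neural stem and glial progenitor genes 6 had Ring1b, 4 of them unmarked, against the same shares of all genes. Hes1 (2.033 kb), Nfib (1.910 kb) and Nes (1.372 kb) were among the unmarked, and Id4 (5.396 kb) and Pdgfra (1.664 kb) were marked. Hes1 is a Notch target, and Nes encodes the progenitor filament nestin. The Pdgfra site (chr5:75152246-75153909), at the PDGF receptor gene, was absent from H3WT Ring1b, and the mark in its window covered 1.49 and 3.99 kb in the H3WT libraries and 4.60 and 9.63 kb in those of K27M. The lower K27M library was above the higher H3WT library at Pdgfra. Within 10 kb of the starts of Sox2 and Olig2, factors of stem cells and of oligodendrocyte precursors, all 12 libraries were at 0.

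**Figure D5:**
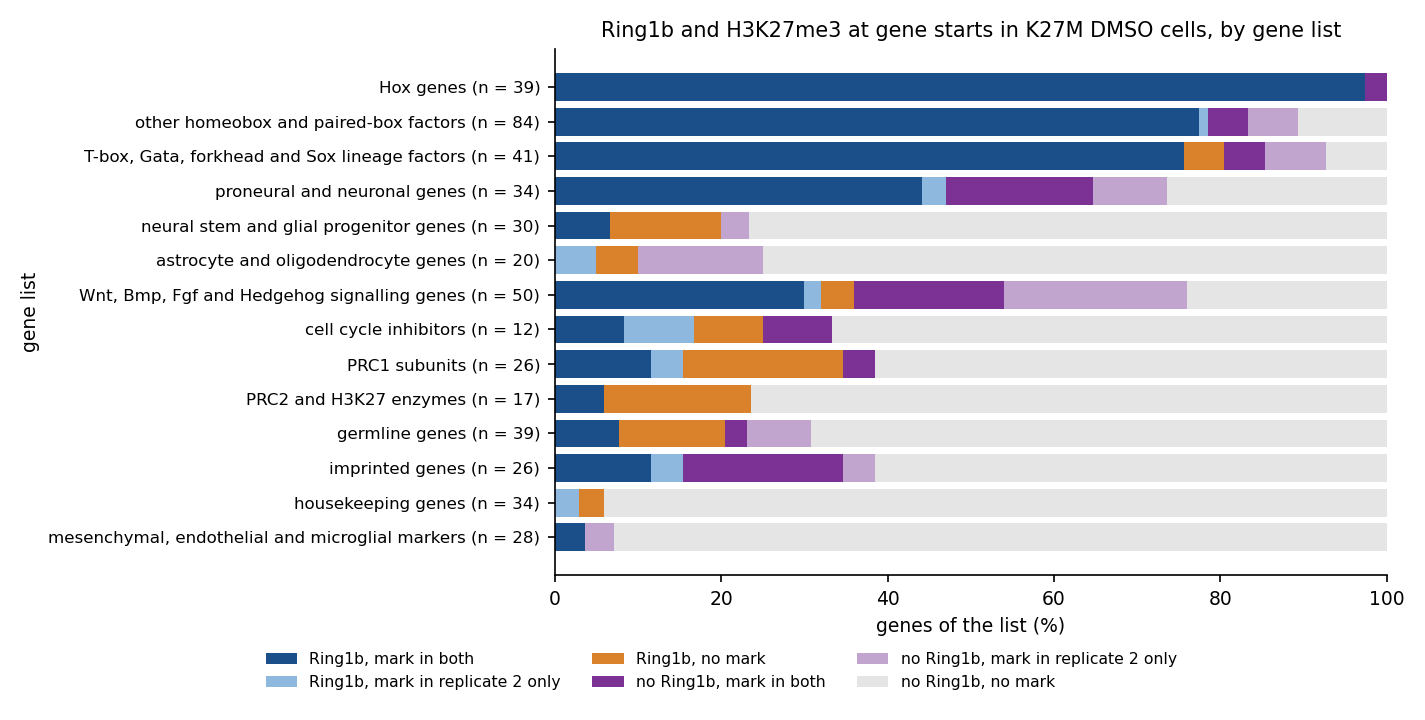
Share of the genes of each list (x axis, percent, with the number of genes beside each list name on the y axis) by Ring1b and H3K27me3 at the gene start in K27M DMSO cells. Marked Ring1b genes fill most of the Hox bar (38 of 39) and the other homeobox bar (65 of 84). Unmarked Ring1b genes are the larger Ring1b group among PRC1 subunits (5 of 26), PRC2 and H3K27 enzymes (3 of 17), germline genes (5 of 39) and neural progenitor genes (4 of 30). They are also the larger group among all 1230 Ring1b genes, with 52.5% unmarked and 40.1% marked in both replicates, so this order is not particular to these lists.

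The remaining lists were mixed. The background is 5.69% of all genes with Ring1b, 2.28% with it marked in both replicates and 2.99% with it unmarked. Of 50 Wnt, Bmp, Fgf and Hedgehog genes, 18 had Ring1b. The mark in both replicates was at 15 of these, among them Gdf6, Fgf9, Wnt1 and Gdf7. The ligand genes Bmp7 and Bmp2 had unmarked Ring1b, and 2 of 50 is near the share of all genes. Of 12 cell cycle inhibitors 3 had Ring1b. Cdkn2a was marked and Rb1 (1.069 kb) unmarked. Gadd45b was marked within its site in both replicates but at its start in replicate 2 only. Cdkn2b, the neighbour of Cdkn2a, was listed at 0. Of 20 astrocyte and oligodendrocyte genes, Gja1 had unmarked Ring1b and Ugt8a Ring1b marked in replicate 2 only. Ring1b lay at 2 of 34 housekeeping genes, Actb and Pgk1 (named after its value was seen), and at 1 of 28 mesenchymal, endothelial and microglial markers, Flt1, shares of 5.88% and 3.57% that are near the 5.69% of all genes.

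At gene starts, the widest sites marked in replicate 2 only included those at Zfp618 (4.570 kb), Hs3st3a1 (3.224 kb), Csmd3 (2.841 kb), Mdga1 (2.744 kb), Ugt8a, a myelin lipid enzyme (2.601 kb), and Arid3b (2.490 kb). Of the Mdga1 site only 4.08% was under the replicate 2 mark, and within 1 kb of the gene's start neither replicate had the mark. At Ugt8a the mark covered 12.2 and 18.4 kb in the H3WT libraries, 0 in K27M replicate 1 and 10.8 kb in K27M replicate 2. Hs3st3a1 had 0 and 13.1 kb in the H3WT libraries and 0 and 6.36 kb in those of K27M, so there the replicates differed in both genotypes. Of the 151 sites of this class, 92 had the mark in H3WT replicate 1 and 142 in H3WT replicate 2, and 12 lay on X (7.95%).

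The share of H3K27me3 length in domains with Ring1b was compared between the genotypes, each with its own Ring1b list. It was 67.5% and 22.6% in K27M replicates 1 and 2, a mean of 45.0% ± 31.7, and 24.9% and 8.46% in H3WT, a mean of 16.7% ± 11.7 (SD, n = 2). The difference of 28.3 points was within the spread between replicates (two-sided exact permutation test, p = 0.667), though K27M was higher in both replicate numbers, by 42.5 and 14.1 points. The covered lengths behind these shares differed as well, with 13.5 and 65.5 Mb in K27M and 43.6 and 217 Mb in H3WT, and the K27M Ring1b list was the longer one. How far the lengths of the lists set the shares was not tested.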

How the data were processed

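Peak lists of 12 ChIP-seq libraries of mouse cells were used as deposited by the authors, 1 list per library, with chromosome, start and end; the deposited score column was 0 throughout and was not used. Bowtie 1.1.2 and mm10 are named in the submitters' processing notes. The caller, its threshold, its control and the read depth are not given in the sources used here. The 2 IgG libraries were not analysed here. Touching peaks of a library were merged. Groups and replicate numbers came from the titles and descriptions.

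Overlap needed at least 1 bp. Gene starts were those of the RefSeq promoter table (GRCm38.p6) for 17274 of 21631 coding genes on chromosomes 1 to 19 and X; the other 4357 were read at both gene ends. Shares have exact Clopper-Pearson 95% intervals, medians binomial order-statistic intervals, and 0 counts a limit of 3 counts. Libraries were compared by two-sided exact permutation over 6 relabellings. All 480 entries of 14 gene lists matched. Named genes were the 8 with the widest sites or domains per class, up to 5 list members per class, and Rnf2, Bmi1, Cbx2, Cdkn2a, Cdkn2b, Pdgfra, Olig2 and Sox2; others are said to be chosen after their values were seen, and some named by the rule are not reported here. Members and lists were chosen with earlier results of these data known. Overlap code was checked on simulated intervals. Alternatives varied the overlap, window, peak width, chromosomes and replicates. Python 3.11.15, numpy 2.4.6, pandas 2.3.3 and scipy 1.17.1 were used.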

Additional observations from a re-analysis of the deposited data

How the results depend on the processing

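Of 106 alternative values for 21 results, 85 stayed within the limits set for a like value, 21 moved and 0 reversed. Limits were 1.5 times for a count, the interval for a share or median, 5% for a share of length, and the same sign for a difference. The same replicate numbers in the labels do not say that libraries were paired. With the replicate block, which relabels within replicate numbers, the exact p was 0.5, the smallest it allows, for each of the 3 comparisons of libraries, with the same differences (-3.24, 28.3 and -47.5 points).

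Ring1b sites of at least 2 kb left 61 unmarked sites. With at least 50% of a site required under the mark, 3 of the 752 unmarked sites had Suz12. Sites of up to 2 kb gave 97 marked sites with Suz12, 30.3% of marked sites with H3WT Ring1b and 32.6% at a start. Without chromosome 10, 63.7% of unmarked sites had H3WT Ring1b. With windows of 5 kb, 59.4% of marked and 88.1% of unmarked sites lay at a start, and with both gene ends 76.6% of unmarked ones. Leaving out a replicate gave a median marked width of 2.66 kb (without replicate 1) to 3.17 kb. Domains of at least 3 kb were occupied at 55.7% (replicate 1) and 13.1% (replicate 2), with 78.2% and 32.6% of the length. Ring1b within 5 kb gave 39.1% and 5.57%, with 71.0% and 23.7% of the length. Without X they were 32.7% and 8.06%, with 34.6% of the replicate 2 length. The causes of these moves were not tested beyond the narrower or wider selection itself. Without X, the genotype difference in occupied length was 32.1 points, with the smallest possible exact permutation p, 0.333.

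Depth is unknown, and a peak missing from a short list does not show that the mark is absent. Ring1b and Suz12 have 1 library per genotype, so their classes have no replicate check.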
